A study of Homo sapiens with 30 samples.

Results

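Broad H3K27ac domains are described here as they appeared in CUT&Tag libraries of K562 cells, a human chronic myeloid leukaemia line. The domains were 344 of the 13394 peaks that SEACR called in 1 library, made with the antibody Abcam-ab4729 at 1/100 without trichostatin A (TSA), with SDS extraction and 15 PCR cycles. A peak was taken when it lay on chromosomes 1 to 22 or X, was at least 8000 bp wide, and did not overlap any SEACR peak of the library made in the same way with the H3K27me3 antibody CST9733. The 344 domains were 2.57% of the peaks and held 3.76 Mb of the 43.3 Mb that the list covers, or 8.69% of its length.

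H3K27ac is acetylation of lysine 27 on histone H3 and is found at active promoters and enhancers. H3K27me3 is the trimethylation of the same residue that Polycomb repressive complex 2 places on silenced chromatin, and a residue cannot carry both marks. Most H3K27ac is found in short stretches around nucleosome-free sites, while long stretches are known from groups of neighbouring enhancers, often called super-enhancers, and from strongly transcribed genes. In CUT&Tag an antibody bound to the mark guides the Tn5 transposase, which inserts adapters into the neighbouring DNA, and the tagged fragments are then sequenced.

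The series holds 25 H3K27ac libraries and 5 H3K27me3 libraries, each from 500000 K562 cells. At 15 cycles, all with SDS extraction, the untreated libraries were Abcam-ab177178, Abcam-ab4729, Active Motif 39133 and CST9733 at 1/100, and Diagenode C15410196 at both 1/100 and 1/50. TSA, an inhibitor of histone deacetylases, was added for ab177178, ab4729 and both Diagenode dilutions, and the labels state neither its dose nor its time. At 11 and 13 cycles the 4 H3K27ac antibodies (Diagenode at 1/50, the others at 1/100) and CST9733 were each run without TSA with SDS and with column extraction. Each condition had 1 library, so no value below carries a replicate error, and p-values were computed only across pairs of conditions. The files list peaks and not reads: the depth behind the 15-cycle lists is unknown, the 11- and 13-cycle libraries were brought to one depth by the authors, and confidence intervals cover counting error of regions only. Positions are on hg19, the build of the peaks, and counted from 1. No hg19 gene annotation was used, so no gene, exon or intron is assigned to any domain.

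The domains were chosen by their width in the untreated ab4729 list, and by the absence of an H3K27me3 peak. Their width and signal in that library are therefore given as a description. Widths ran from 8006 to 66803 bp with a median of 9777 bp, against a median of 2736.5 bp over all peaks of the list. The distribution was steep: 151 domains were at least 10000 bp wide, 74 at least 12000 bp, 33 at least 15000 bp and 12 at least 20000 bp. The 38 domains just inside the limit (8006 to 8195 bp) had a median summed signal of 70390, and the 43 peaks just outside it (7801 to 7994 bp) had 69481, so the limit did not fall at a break in the signal. By summed signal 329 domains were in the top 10% of the list, and the lowest stood at percentile 67.1. The domains were also denser than other peaks: mean signal per base had a median of 8.96, against 7.37 for the 2323 peaks of 4 to 8 kb that were also free of H3K27me3 peaks, and 6.81 for all peaks. Of all 381 peaks of 8000 bp or more on these chromosomes, 37 (9.71%) overlapped the CST9733 list and were left out, while 6.43% of the narrower peaks overlapped it.

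Inside the domains the signal was uneven. MACS2 is a second peak caller, run by the authors on the same library. It placed a mean of 3.83 peaks in each domain, with a median of 4. The MACS2 peaks covered 58.0% of the domain length and 48.6% of the length of all ab4729 peaks, so the domains were the more fully covered. MACS2 placed a peak in 343 of the 344 domains, against 98.1% of all ab4729 peaks. At least 3 peaks lay in 261 domains and a single one in 23. A wider region has room for more peaks, and these counts were not set against narrower peaks. The MACS2 peaks in the domains had a median width of 1085 bp, against 645 bp over its whole list. In 313 domains SEACR gave the highest signal as a stretch under 200 bp, and it lay less often near the edges: with the domain divided into 5 equal segments, 72 had it in the middle segment alone and 78 in the outer 2 combined. With MACS2 peaks within 1 kb of each other merged, the mean number of peaks in a domain was 1.85 in place of 3.83.

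The domains lay on all the chromosomes taken, unevenly. Chromosome 1 held 50 of them (14.5% of the domains, 11.7% of all peaks), chromosome 19 held 36 (10.5% against 6.26%) and chromosome 6 held 32 (9.30% against 6.40%). Chromosome 22 held 15, or 4.36% of the domains against 2.50% of the peaks. At the other end, chromosome 4 held 2 (0.581% against 3.54%), and chromosomes 13 and 21 held 1 each. Read as the share of a chromosome's own peaks, 4.48% of those on chromosome 22 were domains (95% Wilson interval 2.73% to 7.26%), 4.30% on chromosome 19 (3.12% to 5.89%), 3.73% on chromosome 6 (2.66% to 5.22%) and 0.422% on chromosome 4 (0.116% to 1.53%). These 4 intervals leave out the list-wide 2.57%, but they were picked from those of all the chromosomes after the values were seen. They also treat domains as independent of each other, so they are a description and not a test. The place of the domains on chromosome 22 was narrow: 13 of the 15 lay between 19000001 and 24000000, a window that an earlier look at these data had picked for its density of peaks, and which held 133 of the 335 ab4729 peaks of the chromosome. No correction for the altered copy number of K562 was made, and its part in these counts was not tested.

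**Figure D1:**
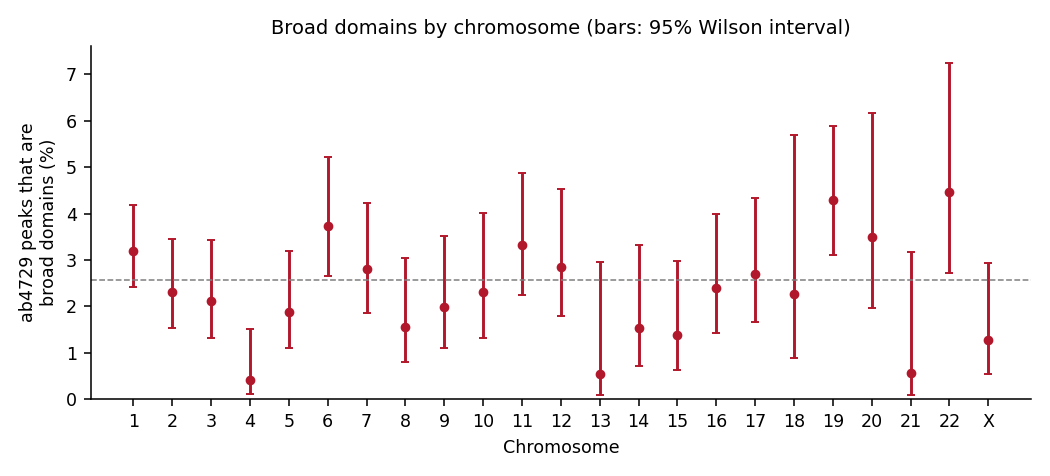
Share of each chromosome's ab4729 peaks that were broad domains (y axis, percent; x axis, chromosome), with 95% Wilson intervals as bars and the list-wide 2.57% as a dashed line. Chromosomes 22, 19 and 6 stand above the line with intervals that leave it out, and chromosome 4 stands below it at 0.422%. The intervals treat domains as independent of each other and are not a test.

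Some of the domains lay at the ends of the mapped chromosome arms. Within 500000 bp of the outermost peak of any list on their chromosome lay 25 domains (7.27%), against 2.67% of all ab4729 peaks and 2.50% of those of 4 to 8 kb. Of the 15 widest domains 5 were such end domains, on chromosome 1 from 11207, chromosome 9 from 17561, chromosome 11 from 306262, chromosome 15 from 102489838 and chromosome 19 from 60014. Beside long spans with no peak inside a chromosome domains were not more frequent: 9 domains (2.62%) lay next to a span of at least 1 Mb without a peak, against 5.79% of all peaks and 3.83% of those of 4 to 8 kb. The last share lies within the 95% Wilson interval of the domains, 1.38% to 4.90%.

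In bins of 1 Mb, 246 bins held a domain of the 2267 bins that held a peak, and 19 bins held 3 or more, together 73 domains. Chromosome 7 from 150000001 to 151000000 held 6 domains of 71027 bp in all among 22 peaks. Chromosome 22 from 20000001 to 21000000 held 6 (62215 bp), and chromosome 5 from 180000001 to 181000000 also held 6 (58682 bp). The first 1 Mb of chromosome 1 and of chromosome 11 held 5 each, as did chromosome 6 from 31000001 to 32000000, and chromosome 17 from 80000001 to 81000000 held 4.

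Neighbouring domains formed chains. With a gap of at most 50000 bp, 82 domains (23.8%, 95% Wilson interval 19.6% to 28.6%) lay in 36 chains, 26 of them with 2 domains and 10 with 3. No chain had more than 3 domains. Of all ab4729 peaks, 67.4% had another peak of any width within the same distance. Those peaks are far more numerous than the domains, so that share is not a background for the clustering of domains. The median distance from a domain to its nearest domain was 702812 bp and the smallest 351 bp, and 6 pairs were within 2000 bp of each other. Around the domains other peaks were denser. The domains had a median of 3 other ab4729 peaks within 50000 bp and 13.7% had none, while peaks of 4 to 8 kb had a median of 2 and 22.1% had none, and those under 4000 bp had a median of 1 and 35.7% had none.

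The chain of 3 domains with the most domain length lay on chromosome 20 from 30190827 to 30311798 and held 51701 bp of domain in 120972 bp. Of that domain length the untreated 15-cycle lists covered 62.1% (ab177178), 8.26% (Active Motif), 17.7% (Diagenode 1/100) and 90.8% (Diagenode 1/50). The chain on chromosome 6 from 7139904 to 7204557 (37446 bp of domain) was covered at 72.6%, 13.1%, 40.2% and 80.1% by the same lists, and the chain on chromosome 7 from 150720950 to 150785958 (33178 bp) at 69.6%, 15.98%, 43.5% and 80.6%. Both remaining chains of the 5, which were ranked by number of domains and then by summed domain length, were on chromosome 22. The chain from 20042882 to 20108676 (35244 bp) was covered at 68.0%, 11.1%, 38.2% and 62.8%, with ab177178 above Diagenode 1/50. The chain from 23573382 to 23625721 (35087 bp in 52340 bp) had the same 2 lists in that order but further apart: ab177178 covered 87.4% of it, Diagenode 1/50 31.3%, Diagenode 1/100 22.9%, and Active Motif none. Allowing gaps of 1 Mb, 191 domains had a neighbour, and the longest chain, of 10 domains, ran on chromosome 22 from 19157976 to 21855753.

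Nearly all domains held a peak in the other untreated 15-cycle H3K27ac lists, apart from the Active Motif list. The Diagenode 1/50 list overlapped 341 domains (99.1%, Wilson 97.5% to 99.7%), against 77.5% of all ab4729 peaks. Diagenode 1/100 overlapped 327 (95.1%, 92.2% to 96.9%, against 48.2%), ab177178 overlapped 325 (94.5%, 91.5% to 96.4%, against 55%) and Active Motif overlapped 210 (61.0%, 55.8% to 66.1%, against 17%). The lists differ in length, with 11844, 7834, 16623 and 3024 peaks in the same order. With each limited to its 3024 strongest peaks, the shares were 94.5%, 74.7%, 66.3% and 61.0%. Most of the distance of Diagenode 1/100 and ab177178 from Active Motif thus went with list length. A wide region offers more bases for an overlap of 1 bp, so the share of length is the closer measure. By length the order was Diagenode 1/50 at 78.1%, ab177178 at 49.1%, Diagenode 1/100 at 34.1% and Active Motif at 9.87%. The same lists covered 71.0%, 36.8%, 27.8% and 6.57% of the peaks of 4 to 8 kb, and 64.8%, 33.8%, 25.8% and 6.43% of all ab4729 peaks, so the domains were the best covered class in each.

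Whether a domain was broad depended on the list. Of the 344 domains, 320 (93.0%) were covered over at least 50% of their length by Diagenode 1/50, 179 (52.0%) by ab177178, 66 (19.2%) by Diagenode 1/100 and 1 by Active Motif. A single peak of 8000 bp or more lay on 130 domains in the Diagenode 1/50 list, on 17 in ab177178, on 3 in Diagenode 1/100 and on none in Active Motif. The median width of the widest overlapping peak was 7145 bp in Diagenode 1/50, 3037 bp in ab177178, 2216 bp in Diagenode 1/100 and 1066.5 bp in Active Motif. The detected domains were broken into a mean of 1.52 peaks by Diagenode 1/50, 2.46 by ab177178, 1.98 by Diagenode 1/100 and 1.60 by Active Motif. Outside the library that chose them the domains were thus seen mostly as peaks shorter than 8000 bp, and of these 4 lists Diagenode 1/50 came closest to a single broad call. The whole lists differ in the same way, with 197 peaks of 8000 bp or more in Diagenode 1/50, 59 in ab177178, 17 in Diagenode 1/100 and 7 in Active Motif, and their depths are unknown. The calls of MACS2 gave the same order of domains with a peak: 341 (99.1%, against 85.1% of all ab4729 peaks) in Diagenode 1/50, 301 (87.5%, against 39.7%) in Diagenode 1/100, 292 (84.9%, against 38.1%) in ab177178 and 151 (43.9%, against 11.2%) in Active Motif.

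**Figure D2:**
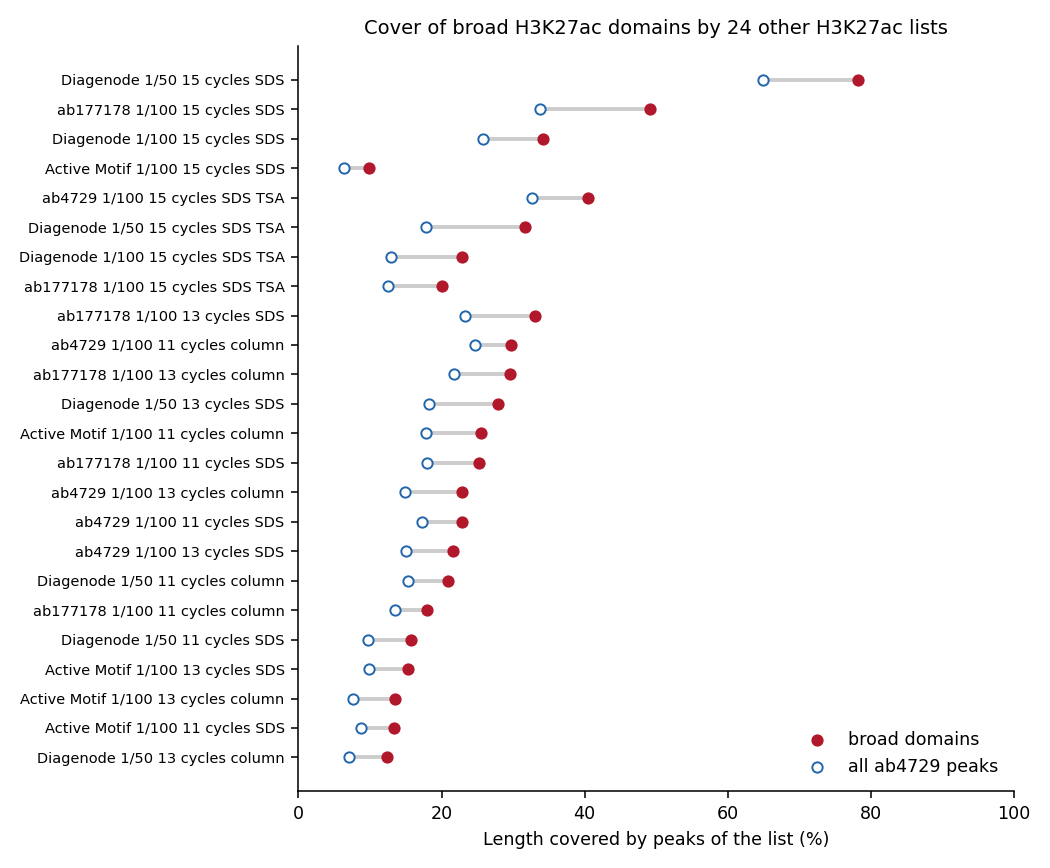
Percent of length covered by the peaks of each of the 24 other H3K27ac lists (x axis; 1 line per list on the y axis), for the 344 broad domains (filled points) and for all 13394 ab4729 peaks (open points). The filled point lies to the right of the open one in 24 of 24 lists. Filled points run from 9.87% for untreated Active Motif at 15 cycles to 78.1% for untreated Diagenode 1/50 at 15 cycles.

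The other antibodies' lists covered the edges of the domains, which the selecting list had drawn, less than the inside. With each domain divided into 20 equal bins, Diagenode 1/50 covered 56.3% of the 2 bins at each edge and 85.3% of the 4 bins in the middle. For ab177178, with 34.1% of the edge bins and 51.6% of the middle ones, the drop was alike in proportion. It was larger for Diagenode 1/100, with 15.2% and 39.6%, and for Active Motif, with 3.71% and 12.7%. Cover did not rise up to the centre. The ab177178 list covered 50.8% of each of the 2 bins at the centre and 57.0% of a bin nearer the edge. Diagenode 1/100 covered 38.4% and 38.8% of the centre bins and 43.5% of a bin nearer the edge. Beyond the edge cover was low at once. In the first 1000 bp outside, ab177178 covered 11.3%, Diagenode 1/50 11.0%, Diagenode 1/100 0.938% and Active Motif 0.0494%. In the fifth 1000 bp outside, cover was higher again, at 13.3%, 12.0%, 3.56% and 0.830% in the same order. The selecting list itself had 3.18% in the first and 18.6% in the fifth.

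**Figure D3:**
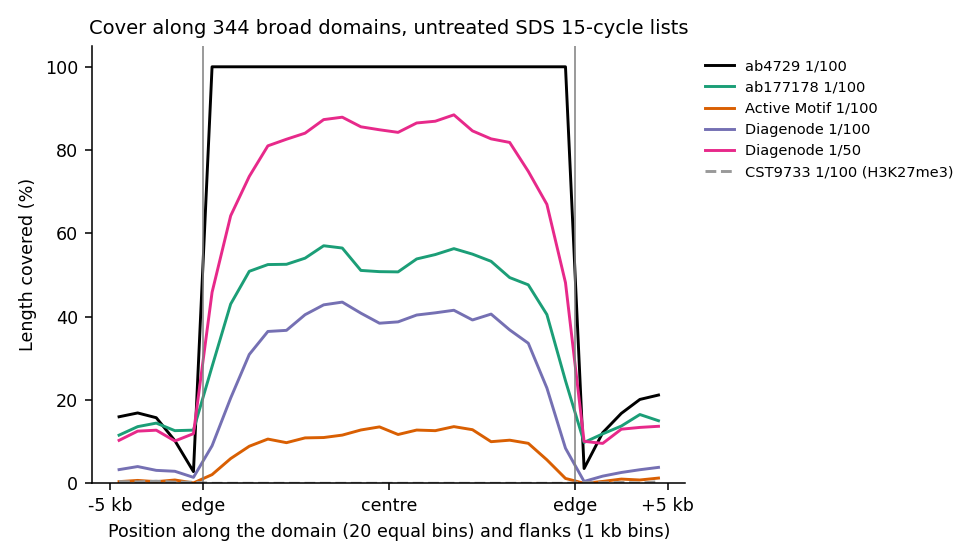
Percent of length covered (y axis) along the 344 domains, scaled to 20 equal bins between the edges, and in 1 kb bins to 5 kb outside (x axis), for the untreated SDS 15-cycle lists. The ab4729 line is at 100% inside because that list chose the domains, Diagenode 1/50 goes from 56.3% in the edge bins to 85.3% in the middle, and the H3K27me3 line is at 0 inside by the rule.

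Over all 24 other H3K27ac lists, 111 domains (32.3%) held a peak in every one, against 2.75% of all ab4729 peaks and 5.77% of those of 4 to 8 kb. At least 20 lists overlapped 238 domains (69.2%, against 11.4% of all peaks), and 11 domains were overlapped by 8 lists or fewer (53.9% of all peaks were). The median was 22 lists for a domain, 15 for a peak of 4 to 8 kb and 8 for any peak. No domain was missed by all the lists, while 739 peaks of the whole ab4729 list (5.52%) were.

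**Figure D4:**
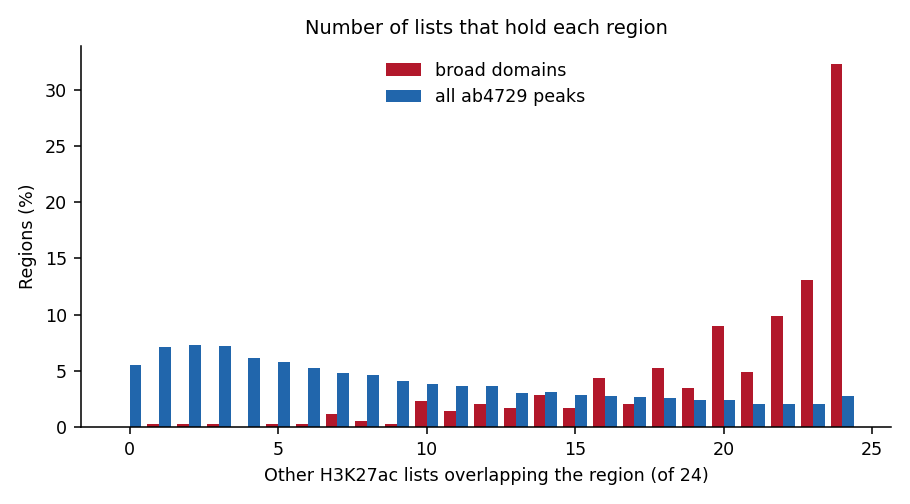
Number of the 24 other H3K27ac lists that overlapped a region by at least 1 bp (x axis) and the percent of regions with that number (y axis), for broad domains (red) and all ab4729 peaks (blue). The domains pile up at 24 lists with 32.3% and the whole list leans to the low numbers, with 5.52% in none.

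The domain covered best over the 24 lists, at a mean of 78.5%, lay on chromosome 1 from 202126369 to 202136508. It was covered at 97.6% by ab177178, 61.1% by Active Motif, 85.8% by Diagenode 1/100 and 98.5% by Diagenode 1/50 without TSA, and in the 16 lists at 11 and 13 cycles its lowest, median and highest cover were 59.7%, 75.2% and 91.7%. It was high in every list, with no antibody or extraction standing low. The next, at a mean of 69.4%, was the domain on chromosome 10 from 5513184 to 5524469. It was covered at 93.3%, 34.6%, 88.1% and 96.9% by the same 4 lists and at 41.7%, 66.1% and 93.4% (lowest, median, highest) at 11 and 13 cycles. Then came the domains on chromosome 22 between 19157976 and 19167975, at 68.1%, and on chromosome 17 between 56407631 and 56418306, at 63.3%. The domain on chromosome 22 was less even than the first, with 21.2%, 70.9% and 95.1% over the 16 lists. The rest of the 10 best covered domains, with means from 55.9% to 60.6%, began on chromosome 1 at 144990919, chromosome 4 at 10180599, chromosome 6 at 31699513 and at 68590796, chromosome 7 at 150648569 and chromosome 19 at 52047287.

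A few domains were hardly found elsewhere. The lowest mean, 0.648%, was that of the domain on chromosome 7 from 102273932 to 102281994, which 1 of 24 lists overlapped, which held no MACS2 peak of the selecting library, and whose summed signal was the lowest of all domains. The domain on chromosome 20 from 39672649 to 39680964 (0.69%) was in 2 lists, and that on chromosome X from 114977052 to 114988058 (2.73%) in 3. The domains on chromosome 19 from 50860106 to 50868118 (5.56%) and chromosome 6 from 129998207 to 130011803 (5.73%) were in 6 and 7 lists.

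The widest domains were not the best covered ones. The widest, 66803 bp on chromosome 1 from 148252853 to 148319655, held 26 MACS2 peaks of the selecting library, but ab177178 covered 1.2% of it, Active Motif 12.45%, Diagenode 1/100 15.3% and Diagenode 1/50 68.2%. In the 16 lists at 11 and 13 cycles it was overlapped in 8, with a median cover of 0.512% and a highest of 7.89%. The second and the fifth widest, on chromosome 1 from 144158717 to 144196092 (37376 bp) and from 144197534 to 144224432 (26899 bp), behaved alike. They were covered by ab177178 at 2.3% and 0%, by Active Motif at 15.8% and 17.3% and by Diagenode 1/50 at 79.3% and 72.5%, in that order, and each was overlapped in 4 of the 16 lists. For these 3 ab177178 stood below Active Motif, against the order over all domains. The third widest lay at the start of chromosome 1 from 11207 to 41467 (30261 bp) and was covered at 46.6% by ab177178, 19.98% by Active Motif, 36.7% by Diagenode 1/100 and 68.2% by Diagenode 1/50.

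The other 12 of the 15 widest domains followed the general order of the 4 lists, apart from that on chromosome 6 from 7157951, where ab177178 covered 75.2% and Diagenode 1/50 64.4%. The fourth widest, on chromosome 20 from 30248243 to 30277171 (28929 bp), was covered at 70.9% by ab177178, 8.2% by Active Motif, 15.7% by Diagenode 1/100 and 89.4% by Diagenode 1/50. The domain on chromosome 12 from 54681985 to 54702158 (20174 bp) was covered at 57.6%, 17.5%, 40.6% and 89.7% by the same lists. The domain on chromosome 1 from 156082661 to 156100584 (17924 bp) was covered at 80.7%, 10.1%, 21.7% and 92.0%. The remaining widest domains lay on chromosome 2 from 114330343 (19652 bp), chromosome 6 from 7157951 (19596 bp), chromosome 9 from 17561 (22441 bp), chromosome 11 from 306262 (21736 bp), chromosome 15 from 102489838 (20660 bp), chromosome 16 from 85584337 (24198 bp), chromosome 19 from 60014 (23065 bp) and chromosome 20 from 45975763 (20109 bp).

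With TSA less of the domain length was covered in each of the 3 pairs of lists whose untreated list did not choose the domains. The ab177178 list covered 49.1% of the domain length untreated and 20.1% with TSA, Diagenode 1/100 34.1% and 22.9%, and Diagenode 1/50 78.1% and 31.7%. For ab4729 the untreated list chose the domains and so covers 100% of them, and its TSA list, which could only be lower, covered 40.4%. The mean difference, TSA minus untreated, was -28.9 ± 17.6 percentage points (SD, n = 3 pairs without ab4729), and -27.0 over all ab4729 peaks in the same pairs. As a ratio of TSA to untreated, the domains had 0.41 (ab177178), 0.67 (Diagenode 1/100) and 0.41 (Diagenode 1/50) of their cover, and peaks of 4 to 8 kb had 0.37, 0.58 and 0.32. The 3 pairs are different antibodies or dilutions of 1 library each, so the SD is between conditions. With 3 pairs an exact sign-flip test cannot go below p = 0.25, and none was made. The TSA lists were shorter in these 3 pairs. They had 7056 peaks against 16623 untreated for ab177178, 4462 against 7834 for Diagenode 1/100, and 6301 against 11844 for Diagenode 1/50. For ab4729 the TSA list was longer, with 22808 against 13394. With both lists of each pair limited to their strongest peaks in equal number, the mean difference over the 3 pairs without ab4729 was -23.8.

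The difference ran through most domains. Fewer bases were covered with TSA in 301 domains and more in 37 for ab177178, in 270 and 61 for Diagenode 1/100, and in 340 and 1 for Diagenode 1/50. Cover was lower in all 3 pairs for 233 domains (67.7%, against 25.2% of all ab4729 peaks) and higher in all 3 for none (0.0299% of all peaks). A region with no cover in an untreated list cannot be lower with TSA, which bears on the background. Most domains still held a peak with TSA, in 89.0% of domains for ab177178 with TSA (against 35.3% of all peaks), 79.4% for Diagenode 1/100 (27.8%), 91.3% for Diagenode 1/50 (36.5%) and 95.1% for ab4729 (65.8%). In all 4 TSA lists together 250 domains (72.7%, against 14.7% of all peaks) held a peak and 3 held none. A peak of 8000 bp or more lay on 0 domains with TSA for ab177178, and on 1 or 2 for the other 3 lists. The whole TSA lists held 12 such peaks for ab177178, 25 for ab4729, 3 for Diagenode 1/100 and 8 for Diagenode 1/50. The untreated lists held 59, 381, 17 and 197 in the same order, so the lower number was not particular to the domains.

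**Figure D5:**
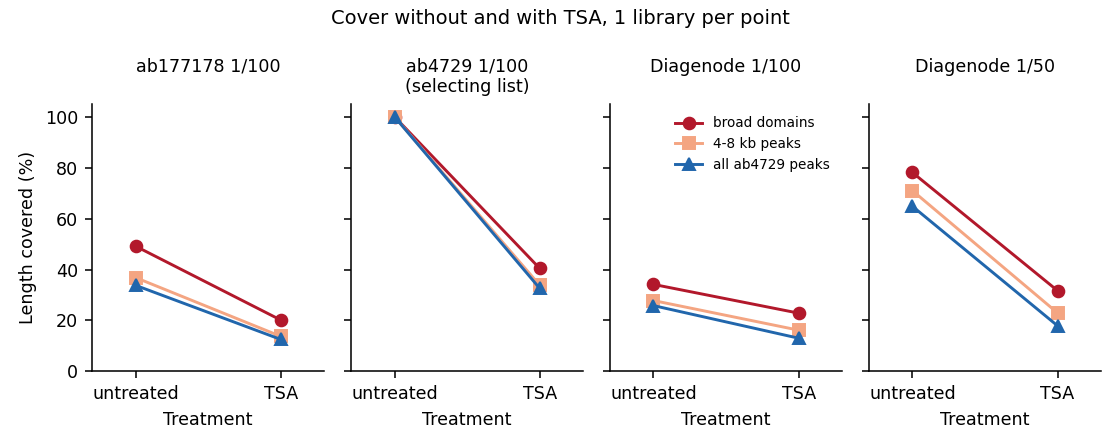
Percent of length covered (y axis) without and with TSA (x axis) in the 4 pairs, for broad domains (circles), peaks of 4 to 8 kb (squares) and all ab4729 peaks (triangles), 1 library per point. The ab4729 line starts at 100% by the rule, the other lines go down as well, and the domains stay the highest class with TSA, at 20.1% (ab177178), 40.4% (ab4729), 22.9% (Diagenode 1/100) and 31.7% (Diagenode 1/50).

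The largest mean change over the 3 pairs, -62.5 percentage points, was that of the domain on chromosome 17 from 76261748 to 76270038. Its cover was 91.0% untreated and 0% with TSA for ab177178, 34.9% and 0% for Diagenode 1/100, and 96.8% and 35.2% for Diagenode 1/50. The domain on chromosome 2 from 26986207 to 26994967 (-54.8) had the same shape, at 66.9% and 0%, 35.9% and 0%, and 96.8% and 35.3%. The other 3 of the 5 largest decreases were on chromosome 22, from 21787706 (-57.4), from 21845895 (-54.1) and from 23573382 to 23581819 (-54.7). The last had no cover left in these 3 TSA lists, but 85.4% in the ab4729 TSA list. Means above 0 were found in 3 domains. They were on chromosome 19 from 1268408 to 1277148 (6.54) and nearby from 1247670 to 1255864 (0.325), and on chromosome 13 between 111615535 and 111625316 (0.252). The first was covered at 20.2% untreated and 34.7% with TSA for ab177178 and at 0% and 41.1% for Diagenode 1/100, but at 91.9% and 56.0% for Diagenode 1/50.

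The 13 domains of the dense stretch of chromosome 22 stood apart by antibody. The ab177178 list covered 79.7% of their length and 48.0% of the other domains' length, Active Motif 18.3% and 9.55%, and Diagenode 1/100 42.3% and 33.8%. Diagenode 1/50 went the other way, with 63.2% and 78.7%. With TSA, ab4729 covered 66.8% of them and 39.4% of the others, ab177178 19.5% and 20.1%, Diagenode 1/100 23.5% and 22.8%, and Diagenode 1/50 18.3% and 32.2%. These are domains of 1 stretch and not independent of each other.

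In the 16 untreated lists at 11 and 13 cycles the domains were found as places but seldom as broad calls. With SDS at 11 cycles a peak lay in 85.2% of the domains for ab177178 (against 42.3% of all ab4729 peaks), 83.7% for ab4729 (36.4%), 72.1% for Active Motif (23.8%) and 76.7% for Diagenode (24.1%). With the column at 11 cycles the shares were 80.5% (35.8%), 84.0% (44.2%), 90.1% (41%) and 83.1% (37.2%) in the same order. With SDS at 13 cycles they were 86.0% (44.3%), 84.9% (36.9%), 80.2% (31.6%) and 89.0% (41.1%), and with the column at 13 cycles 88.7% (45.3%), 79.4% (29.9%), 75.9% (22%) and 71.2% (20.3%). Active Motif, which found the fewest domains at 15 cycles, found more of them in each of its 4 lists here, up to 310 of 344. Those lists were also longer than its 15-cycle list of 3024 peaks. They had 3957 peaks (SDS) and 7191 (column) at 11 cycles, and 6070 (SDS) and 3896 (column) at 13 cycles. Each also overlapped more of all ab4729 peaks than the 17% of the 15-cycle list. The lists covered 12.4% to 33.1% of the domain length with a median of 22.2%, and the number of domains covered over at least 50% went from 4 (Active Motif, column, 13 cycles) to 85 (ab177178, SDS, 13 cycles). At most 4 domains held a peak of 8000 bp or more in any of these lists. The whole lists held few such peaks too, from 0 (ab4729, SDS, 11 cycles) to 8 (ab177178, SDS, 11 cycles). The low count is thus one of the lists and not of the domains alone. For ab4729 such a peak lay on 4 domains with the column at 11 cycles, where the whole list held 5. With the column at 13 cycles it lay on 1 domain, and the whole list held 1. The 2 SDS lists of ab4729 held 0 such peaks. These libraries differ from the 15-cycle ones in cycle number and in being brought to one depth, and the 2 cannot be told apart. The column lists differ from the 15-cycle lists in extraction as well.

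Extraction was compared in 8 pairs of the same antibody and cycle number, and no common direction was found. At 11 cycles the column list covered more of the domain length than the SDS list for ab4729 (29.7% against 22.8%), Active Motif (25.5% against 13.3%) and Diagenode (21.0% against 15.8%), and less for ab177178 (17.9% against 25.2%). At 13 cycles it covered more for ab4729 (22.9% against 21.5%) and less for ab177178 (29.6% against 33.1%), Active Motif (13.5% against 15.3%) and Diagenode (12.4% against 27.9%). The mean difference, column minus SDS, was -0.311 ± 8.73 percentage points (SD, n = 8 pairs), with 4 pairs on each side. It was 4.25 ± 8.24 at 11 cycles and -4.87 ± 7.39 at 13 cycles (n = 4 pairs each). The difference between 13 and 11 cycles was 0.645 ± 9.35 over 8 pairs, again with 4 on each side, and was 5.20 ± 5.97 with SDS and -3.91 ± 10.6 with the column. All these means were within 1 SD of 0. That SD is the spread between pairs and not the error of the mean, so a small difference is not excluded. Each antibody enters the 8 pairs more than 1 time, so they are not independent. Over all ab4729 peaks the mean was 0.303 for extraction and -0.913 for cycles. The lists of a pair also differ in length. For Active Motif at 11 cycles the column list had 7191 peaks against 3957, and for Diagenode at 13 cycles 3761 against 6956. For ab4729 at 13 cycles the column list covered more with fewer peaks, 4665 against 6269.

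Each ab4729 peak was then tested by an exact two-sided sign-flip test over the 8 pairs, with Benjamini-Hochberg adjustment over 13394 peaks. Neither comparison called a domain or any other peak at an adjusted p of 0.05, a background of 0%. The smallest p of 8 pairs is 0.0078125, and 2093 peaks would have to reach it for a call, so a low count here says little about the domains. At an unadjusted p of at most 0.05 there were 11 domains for extraction (3.198%, against 0.948% of all peaks), 7 higher with the column and 4 lower. For cycles there were 15 (4.36%, against 1.84%), 8 higher at 13 cycles and 7 lower. Both domain shares lie below the fraction of 0.05 that this unadjusted limit allows when nothing differs. No effect on the domains is read from them. Many narrow peaks were covered in few of the lists and could not reach a low p. By direction alone, 1 domain, on chromosome 14 from 91266507, was higher with the column in all 8 pairs (0.0448% of all peaks were) and none was lower in all 8 (0.0299%). Domains on chromosome 19 from 13948098 to 13956382 (mean 19.4 percentage points) and chromosome 1 from 200982095 to 200991546 (21.4) were higher at 13 cycles in all 8 pairs (0.0597% of all peaks). The domains at the ends of chromosome 1 from 11207 to 41467 (-9.58) and chromosome 12 from 66816 to 82896 (-6.57) were lower in all 8 (0.142%). These 5 were singled out after their values were seen.

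The rule kept the domains clear of the H3K27me3 list at 15 cycles only, and the other CST9733 lists were compared with them. The SDS list at 11 cycles overlapped 15 domains (4.36%, Wilson 2.66% to 7.07%, against 3.51% of all ab4729 peaks), the SDS list at 13 cycles 7 (2.03%, against 3.69%) and the column list at 13 cycles 1 (0.291%, against 2.5%). All ab4729 peaks include those that overlap H3K27me3 at 15 cycles, which the rule removed from the domains. The peaks of 4 to 8 kb without such an overlap are the closer comparison, and 1.94%, 1.21% and 0.344% of them were overlapped by these 3 lists. The column list at 11 cycles stood apart, with 133 domains (38.7%, 33.7% to 43.9%), against 14% of all ab4729 peaks and 19.5% of those of 4 to 8 kb. The overlaps were short: 189 peaks of that list lay in domains, with a median width of 516 bp. They stood at a median signal percentile of 31.7 in their own list and covered 2.73% of the domain length. Of the peaks of 4 to 8 kb that list covered 2.35% of the length, and of all ab4729 peaks 3.34%. By length the domains thus did not stand out. Only 11 of the 133 domains were also overlapped by another H3K27me3 list at 11 or 13 cycles. Within these 133 domains the column 11-cycle H3K27ac lists covered more of the bases of those H3K27me3 peaks than of the domains as a whole. The shares were 78.1% against 37.7% of the domain length for ab4729, 73.3% against 32.8% for Active Motif, 70.7% against 28.7% for Diagenode and 60.4% against 24.7% for ab177178. The 133 domains were found in a median of 24 of the 24 H3K27ac lists and had a median mean signal of 10.2, and the other 211 were found in 20 and had 8.06. What these short H3K27me3 peaks stand for was not tested. From the 15-cycle H3K27me3 peaks the domains stood at a median of 66338.5 bp, with 9 (2.62%) within 5000 bp, and the peaks of 4 to 8 kb at 69465 bp, with 2.80% within 5000 bp. MACS2 put an H3K27me3 peak of the same library in 22 domains (6.40%, against 9.57% of all ab4729 peaks and 3.31% of those of 4 to 8 kb without a SEACR H3K27me3 peak).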

How the data were processed

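CUT&Tag libraries of K562 cells were analysed from the peak lists that the authors deposited, 1 SEACR list for each of 30 libraries and a MACS2 list for the 6 untreated 15-cycle libraries. Per the submitters' processing notes, the authors used the peak callers MACS2 and SEACR and the tools Bowtie2 2.2.9, Trim Galore 0.6.6, bedtools 2.25.0, bcl2fastq, SAMtools 1.3.1 and Picard 2.6.0 with hg19, in an order not given here. Peaks were called per library without duplicates, per the labels, and the 11- and 13-cycle libraries were downsampled. The deposited SEACR lists give each peak's summed signal and highest signal. In those from MACS2 the deposited columns are a score, a fold enrichment and −log10 p and q values, of which only the q was used, in an alternative, and the peak names carry a q of 0.00001 and no lambda.

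Domains were intersected with each list in Python 3.11.15 (pandas 2.3.3, numpy 2.4.6, scipy 1.17.1), with an overlap of at least 1 bp and the percent of length covered. A chain joined domains at most 50000 bp apart. Intervals are 95% Wilson intervals. Pairs of conditions were compared by an exact sign-flip test per peak, adjusted by Benjamini-Hochberg. On simulated data the test put 200 of 200 planted peaks at the smallest p, and covered bases were the same as from bedtools 2.31.1 for 13394 of 13394 peaks. Regions named are the 15 widest domains, the 10 best and 5 least covered, the 5 chains with the most domains and then the most domain length and the 5 largest TSA changes in each direction (only 3 were above 0). The members and lists were chosen with earlier results of these data known. Alternatives were other width limits, H3K27me3 exclusions, gaps, overlap rules, callers and equal list sizes.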

Additional observations from a re-analysis of the deposited data

Results flagged for a closer look

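The selecting list held 12 further peaks of at least 8000 bp outside chromosomes 1 to 22 and X, which the comparisons above do not use. Chromosome Y held 2, the mitochondrial sequence 1, and unplaced or unlocalised contigs 9, with widths from 8400 to 29539 bp. They were singled out because they are signal in sequence outside the main measurement.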

How the results depend on the processing

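The number of domains followed the limits: 869 at 6000 bp, 151 at 10000 bp, 74 at 12000 bp, 202 when any 11- or 13-cycle H3K27me3 list also excluded, and 211 with its column 11-cycle list alone added (chosen after seeing the data), against 381 without exclusion. The share with a neighbour was 13.4% at the shortest gap tried, 30.2% at 100000 bp and 55.5% at 1 Mb. Without the dense windows chromosome 22 held 0.604% of the domains. Asking for 50% of the length, lists of 3024 peaks, or MACS2 in turn gave detection of 52.0%, 66.3% and 84.9% for ab177178 and 19.2%, 74.7% and 87.5% for Diagenode 1/100. Active Motif gave 0.291% at 50% and 43.9% with MACS2. At equal size it stayed at 61.0%, because its list is the shortest. Diagenode 1/50 gave 93.0% at 50% and 94.5% at equal size. With the ab4729 pair, whose direction the rule fixes, the mean TSA difference was -36.6 points, or -8.50 as a share of domains overlapped. Without that pair it was -28.9, and -23.8 at equal list size, an alternative also chosen after seeing the data. With at least 10% of a domain covered, H3K27me3 lists held 0% (SDS, 11 cycles), 6.69% (column, 11 cycles), 0% (SDS, 13 cycles) and 0% (column, 13 cycles). Any of them overlapped 41.3% of domains, and 5.81% without the column 11-cycle list. Means for extraction (-4.87 to 4.25) and cycles (-3.91 to 5.20) changed sign between settings, and the SD between pairs does not give their error. The cause of these changes was not tested beyond what each limit fixes by construction. No pairing of samples by replicate number was possible because each condition has 1 library. The pairs of conditions tested above are matched by antibody and protocol. Peak lists without reads limit all values: a missing peak can be low depth, and the 15-cycle depths are unknown.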
